A study of Mus musculus with 8 samples.

Results

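The 9 genes described here encode transcription factors reported to act on Il10, the gene of the anti-inflammatory cytokine interleukin 10, in myeloid or T cells. They are Maf, Ahr, Prdm1, Sp1, Creb1, Atf1, Crem, Nfil3 and Bhlhe40, each matched by its symbol to a single row of a deposited table of 17823 genes, and all 9 passed the filter on low counts. The table holds read counts from polyadenylated RNA of mouse macrophages grown from C57BL/6 bone marrow for 7 days with M-CSF, a macrophage growth factor, and treated with 1 µg/ml LPS, a bacterial membrane component that signals through Toll-like receptor 4. The groups are 4 libraries of cells labelled positive and 4 libraries of cells labelled negative for Il19-tdT, a tdTomato fluorescent reporter of the Il10-family gene Il19, with replicate numbers 1 to 4 in both groups. Strain, growth factor and LPS were common to both groups. How the reporter was built, how the cells were separated, how long LPS was applied and whether a number marks a shared mouse or culture have no source here. The p-values therefore measure spread among these libraries only. In the main fit this is the spread left once differences between the replicate numbers are taken out.

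Il10 is switched on in macrophages after LPS through kinases of the ERK and p38 pathways, which act through MSK kinases on CREB1 and the related ATF1 bound at cAMP response elements. Another input, from cAMP, releases the CRTC co-activators from the salt-inducible kinases so that they can bind CREB. MAF, a basic leucine zipper factor of mature macrophages, activates Il10 and lowers interleukin 12. AHR, a ligand-activated receptor, and PRDM1 (Blimp-1) work with MAF at Il10 in T cells, SP1 binds GC boxes in many promoters including that of Il10, and NFIL3 has been tied to Il10 in T cells. Some of the set can act in the opposite direction. BHLHE40, an E-box binder, represses Il10 in mouse T and myeloid cells, and Crem encodes activators as well as ICER, a short repressor made from an internal promoter. Counts per gene do not separate the Crem products.

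Upstream sequences from RefSeq (GRCm38.p6) were at hand for 5 of the 9 genes and for Il19. Letters bound by the 9 factors were searched on both strands in the 250 bases before each start, with 8 motifs: TGACGTCA and its core TGACG for CREB1, ATF1 and CREM, GGGCGG for SP1, CACGTG for BHLHE40, GCGTG for AHR, TGCTGA for MAF, TTACGTAA for NFIL3 and GNGAAAG for PRDM1. TGACG lies within TGACGTCA, and the other pairs can overlap by a few letters. The Il19 window is shown because Il19 is the gene whose reporter separates the groups, and the Atf1 window because it holds the letters of AHR and BHLHE40, which are among the factors whose transcripts changed. Capitals mark the matches. The Il19 window covers chr1:130940116-130940365 on the minus strand and the Atf1 stretch, the first 210 bases of its window, chr15:100227609-100227818 on the plus strand, ending where the GENCODE gene begins.
Il19: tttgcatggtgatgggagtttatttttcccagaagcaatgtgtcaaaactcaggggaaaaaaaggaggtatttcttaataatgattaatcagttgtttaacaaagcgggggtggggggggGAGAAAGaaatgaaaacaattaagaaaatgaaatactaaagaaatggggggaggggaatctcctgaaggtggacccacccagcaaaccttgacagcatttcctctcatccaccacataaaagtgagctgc
Atf1: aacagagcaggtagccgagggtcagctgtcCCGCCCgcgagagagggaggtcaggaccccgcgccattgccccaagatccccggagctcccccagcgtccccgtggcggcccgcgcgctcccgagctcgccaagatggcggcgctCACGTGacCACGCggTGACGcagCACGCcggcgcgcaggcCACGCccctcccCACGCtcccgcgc
Il19 held a single match, GNGAAAG at 130 bases before the start, letters present in 19.4% of all 32851 windows. Atf1 held CACGTG (6.02% of windows) and TGACG (17.8%) at 1 place each, GCGTG (28.2%) at 4 places and GGGCGG (32.7%) at 2 places, of which the one nearest the start lies beyond the printed stretch. GGGCGG stood at 9 places in the Nfil3 window, at 4 in that of Sp1 and at 1 in that of Creb1. The GENCODE gene begins after the first 91 bases of the Creb1 window and the first 77 of the Sp1 window. The Creb1 match, at 64 bases before the window end, and the Sp1 matches at 81 and 62 thus lie within the gene. TGCTGA and TTACGTAA, in 16.1% and 0.113% of all windows, matched in none of the 6. The letters of AHR were not particular to Atf1, as GCGTG also stood at 2 places in the Prdm1 window and at 1 in that of Sp1. TGACG stood at 1 place each in the Nfil3 and Prdm1 windows, and GNGAAAG at 1 in that of Sp1. The Prdm1 window and these Sp1 matches lie within the GENCODE genes. The matches describe letters and do not show binding.

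Libraries held between 49850537 and 58516454 counts over genes, a depth at which the 9 factors had between 2205 and 79897 counts per group. The Il19 transcript, which checks the labels, averaged 185 ± 36.6 CPM (counts per 1e6 counts, scaled by trimmed means) in tdT-positive libraries and 11.97 ± 3.45 CPM in tdT-negative libraries (SD, n = 4 each), with no overlap. Il10 had 103, 71.6, 36.1 and 110 CPM in tdT-positive libraries 1 to 4, against 50.9, 40.1, 17.0 and 41.3 CPM in the tdT-negative libraries of the same numbers. It was thus higher in 4 of 4 numbers, with a log2 fold change of 1.09 (SE 0.09, edgeR adjusted p = 0.00455), although the groups overlapped. The macrophage markers Lyz2, Adgre1, Csf1r, Cd68, Itgam, Fcgr1 and Cd14 did not pass the edgeR test, and Mertk rose (19.0 ± 5.36 CPM tdT-positive and 11.3 ± 2.12 CPM tdT-negative). Their list summed to between 14229 and 18466 CPM in tdT-positive and between 12004 and 21521 CPM in tdT-negative libraries. In tdT-positive replicate 3, Rn45s and Lars2 took 13.2% of the counts, against at most 0.769% elsewhere. The 3 calls among the factors held without these genes, a step that kept the other counts of that library. With number 3 left out, the Maf call was lost (edgeR adjusted p = 0.120). Ahr and Bhlhe40 were still called there (edgeR adjusted p = 0.0478 and 0.0437).

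Of the 9 factors, Ahr and Maf were higher and Bhlhe40 was lower in tdT-positive macrophages, and the other 6 did not pass the test. The fold was 1.32 for Ahr and 1.22 for Maf, and Bhlhe40 was at 0.457 of its tdT-negative level. Prdm1, Sp1, Creb1, Atf1 and Crem had positive and Nfil3 a negative log2 fold change, all with a size of 0.20 or less. The sign turned for Creb1 after a correction for gene length (-0.02), for Crem with scaling by library totals (-0.0018) or without number 4 (-0.02), and for Nfil3 after the length correction (0.0060) or without number 1 (0.03). These values come from the quasi-likelihood test of edgeR over 12610 genes with the replicate number as a block, at a Benjamini-Hochberg adjusted p under 0.05, which called 15.8% of all genes tested, 8.03% as higher and 7.81% as lower, or 1013 and 985 genes. With scaling by library totals, which moved the median of all genes by -0.077, the split was 425 higher and 995 lower. The median log2 fold change of the 9 was 0.14, and that of all genes tested was 0.01. Without the block 3 genes of 12610 passed (0.0238%, 0.00793% higher and 0.0159% lower) and none of the 9 did, with 1 of the 9, Sp1, at an unadjusted p under 0.05. In that fit the adjusted p was 0.688 for Maf, 0.645 for Ahr and 0.421 for Bhlhe40. Maf, Ahr, Sp1 and Atf1 were higher and Bhlhe40 was lower in 4 of 4 numbers, a direction kept by 41.5% of all genes tested (21.9% higher and 19.6% lower). The groups overlapped for all 9 factors, while 11.4% of all genes had no overlap (5.46% higher and 5.92% lower).

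**Figure D1:**
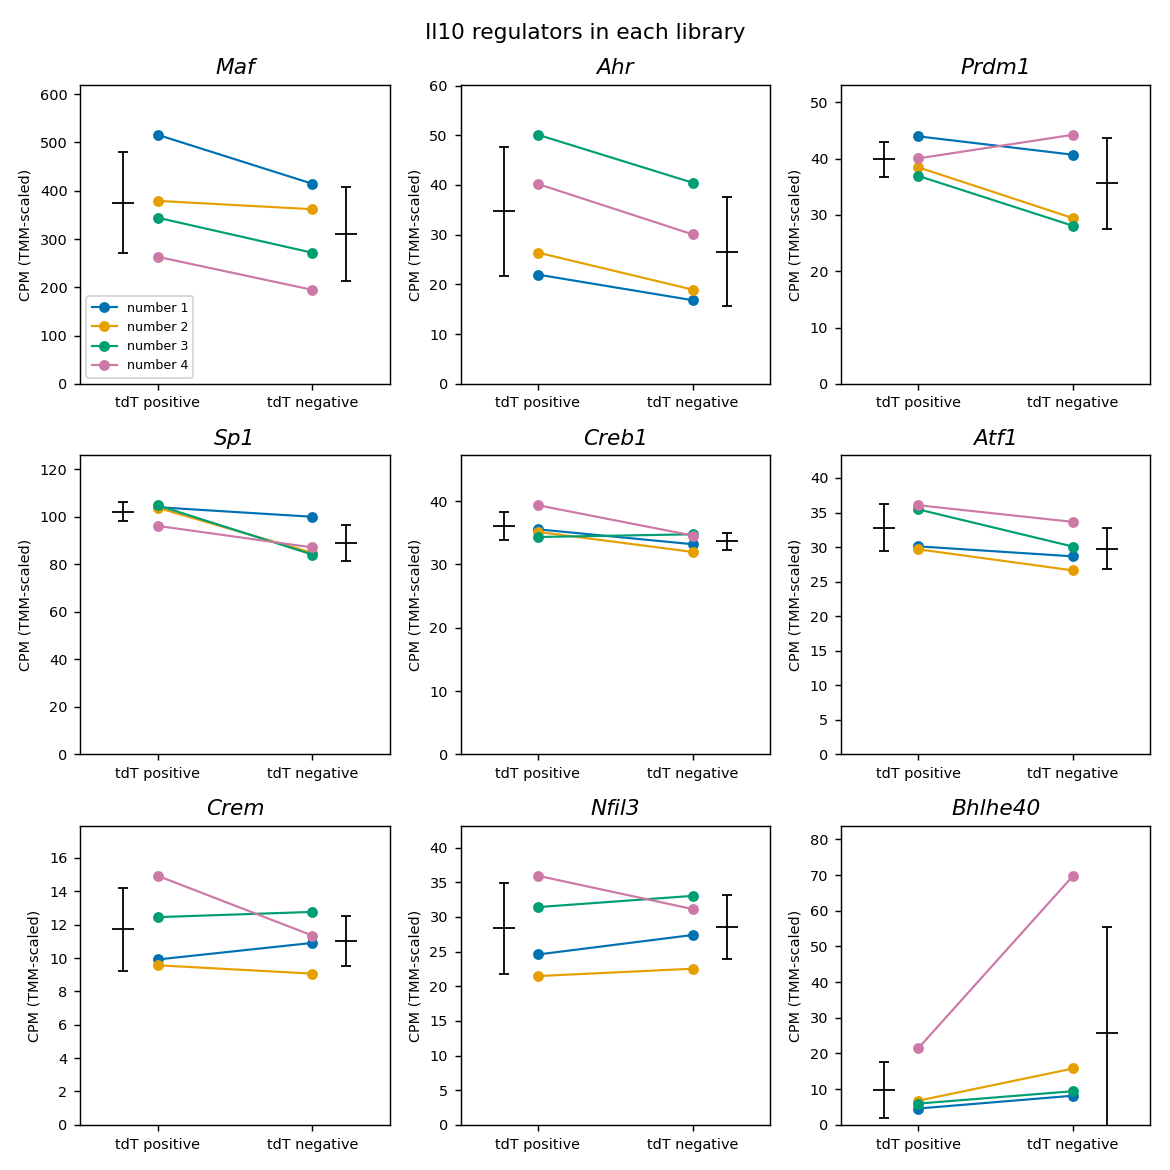
Scaled CPM (vertical axis, starting at 0) of each of the 9 factors in tdT-positive (left) and tdT-negative (right) libraries. Points are libraries, coloured lines join the libraries of a replicate number, and black bars give the mean and SD of 4 libraries, ending at 0 where the SD is larger than the mean. The lines of Ahr and Maf fall from left to right in 4 of 4 numbers and those of Bhlhe40 climb in 4 of 4.

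**Figure D2:**
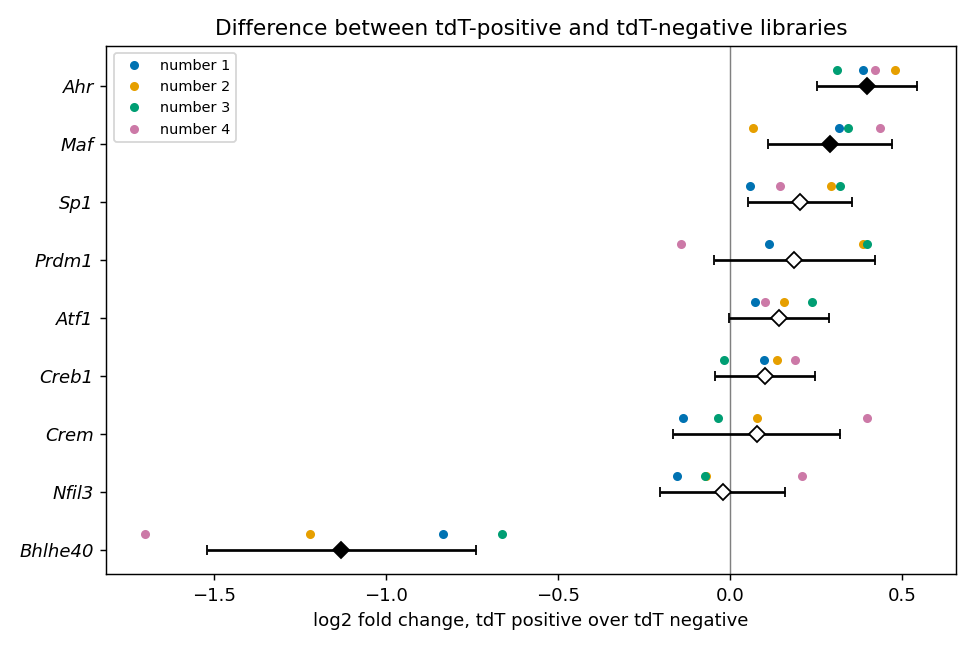
Log2 fold change of tdT-positive over tdT-negative libraries for the 9 factors (horizontal axis). Diamonds give the blocked edgeR estimate with its 95% confidence interval, filled where the adjusted p was under 0.05, and coloured points give the ratio within each replicate number. Ahr (0.40) and Maf (0.29) lie right of 0 and Bhlhe40 (-1.13) left of it.

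Maf was the most abundant of the factors. Per kilobase of gene, it reached 103 ± 28.9 RPKM (reads per kilobase, scaled like CPM) in tdT-positive and 85.3 ± 26.7 RPKM in tdT-negative libraries. Nfil3, Atf1 and Sp1 followed at 14.2 ± 3.29, 14.1 ± 1.46 and 13.1 ± 0.519 RPKM in tdT-positive libraries, levels that did not differ beyond their spread. Prdm1 (7.66 ± 0.581 RPKM), Ahr (6.31 ± 2.35), Creb1 (4.29 ± 0.265), Bhlhe40 (3.12 ± 2.54) and Crem (2.61 ± 0.558) came below them, and among these 5 each was within the spread of the next. Among tdT-negative libraries the order was the same but for Bhlhe40, whose mean of 8.29 ± 9.48 RPKM stood above Prdm1 through a single library at 22.4 RPKM.

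Maf (chromosome 8, 115682942 to 115707794 of GRCm38) had 516, 379, 344 and 263 CPM in tdT-positive libraries 1 to 4, against 415, 362, 272 and 195 CPM in tdT-negative libraries 1 to 4. The spread between numbers was wider than that between groups: the highest tdT-positive library held 1.96 times the lowest, and the highest tdT-negative library 2.13 times the lowest. Within numbers the tdT-positive library was higher by 1.05 to 1.35 times, least in number 2. The log2 fold change was 0.29 (SE 0.08, 95% interval 0.11 to 0.47, edgeR adjusted p = 0.0450), close to the threshold, and the exact two-sided permutation test, with 70 possible assignments, gave p = 0.429. The Maf call was lost whichever number was left out, with log2 fold changes of 0.25 to 0.35 and adjusted p of 0.0522 to 0.138. It was also lost when libraries were scaled by their totals (adjusted p = 0.0782) or by upper quartiles (adjusted p = 0.0562), and with gene length corrected for (adjusted p = 0.0652).

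Ahr (chromosome 12, 35497974 to 35535038) had 21.97, 26.4, 50.1 and 40.2 CPM in tdT-positive libraries 1 to 4, against 16.8, 19.0, 40.5 and 30.1 CPM in the tdT-negative ones. Numbers 3 and 4 were high and numbers 1 and 2 low in both groups, so the groups overlapped (exact permutation test, p = 0.343). Within numbers Ahr was higher by 1.24 to 1.39 times, the narrowest range among the called factors. The log2 fold change was 0.40 (SE 0.06, interval 0.25 to 0.54, adjusted p = 0.0114), and it was no longer called without number 2 (adjusted p = 0.0656).

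Bhlhe40 (chromosome 6, 108660629 to 108666925) had 4.58, 6.78, 5.96 and 21.5 CPM in tdT-positive libraries 1 to 4, against 8.17, 15.8, 9.43 and 69.8 CPM in the tdT-negative ones. Both libraries of number 4 were far above the others of their group, and the tdT-positive library of number 4 exceeded 3 of the tdT-negative ones. Within numbers the tdT-positive library held 0.561, 0.429, 0.632 and 0.308 of the tdT-negative level. The log2 fold change was -1.13 (SE 0.17, interval -1.52 to -0.74, adjusted p = 0.0109), and the exact permutation test gave p = 0.229. Without number 4 it was -0.91 (SE 0.12, adjusted p = 0.00216), and without number 2 it was -1.10 and not called (adjusted p = 0.0652).

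Exons of Maf, Ahr and Bhlhe40 share bases with genes on the opposite strand in the GENCODE annotation (Gm15655, Gm48236 and 0610040F04Rik). The library kit marks strand, but the strand setting of the counting is unstated in the labels and notes, so reads of these partners, which were not analysed here, cannot be told apart from those of the factors.

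Many markers of other cell types fell in the tdT-positive libraries, as Bhlhe40 did, where 7.81% of all genes tested were called lower. Of 7 osteoclast markers, 4 fell and 3 did not pass, and their summed level was 60.0 to 114 CPM in tdT-positive libraries and 80.2 to 1398 CPM in tdT-negative libraries, with the highest value in tdT-negative replicate 4. Of 9 stromal and fibroblast markers tested, 8 fell and 1 did not pass, at summed levels of 60.3 to 147 CPM in tdT-positive libraries and 248 to 2229 CPM in tdT-negative libraries. Monocyte markers fell in 3 of 7 cases, the other 4 not passing (119 to 429 CPM in tdT-positive libraries and 160 to 475 CPM in tdT-negative libraries). Neutrophil markers fell in 4 of 6 tested (54.1 to 271 CPM in tdT-positive libraries and 168 to 1475 CPM in tdT-negative libraries). Mmp9, which did not pass, made 1461 of the 1475 CPM in tdT-negative replicate 4, against 29.0 of 168 CPM in tdT-negative replicate 1. The other neutrophil markers thus did not peak in tdT-negative replicate 4. Elane, Prtn3 and Retnlg of the neutrophil list and Cd3e of the T and NK list had 0 counts in the tdT-positive libraries. Of 3 dendritic cell markers tested 2 fell and 1 did not pass, at sums of 18.1 to 21.7 CPM tdT-positive and 33.8 to 47.8 CPM tdT-negative. Of the T, NK, B and plasma cell lists only Cd4, Lck and Sdc1 were tested and none passed. The T and NK list summed to 0.974 to 1.22 CPM tdT-positive and 0.504 to 1.08 CPM tdT-negative, and the B and plasma cell list to 118 to 224 CPM tdT-positive and 229 to 366 CPM tdT-negative. The most abundant of each list were Acp5 (osteoclasts, 69.8 ± 20.1 CPM tdT-positive and 290 ± 390 CPM tdT-negative), Col1a1 (stroma, 32.4 ± 15.8 CPM tdT-positive and 320 ± 361 CPM tdT-negative), Vcan (monocytes, 257 ± 135 CPM tdT-positive and 237 ± 117 CPM tdT-negative), Mmp9 (neutrophils, 145 ± 100 CPM tdT-positive and 430 ± 689 CPM tdT-negative), Fscn1 (dendritic cells, 6.90 ± 2.53 CPM tdT-positive and 25.7 ± 5.30 CPM tdT-negative), Cd4 (T cells, 0.749 ± 0.144 CPM tdT-positive and 0.481 ± 0.112 CPM tdT-negative) and Sdc1 (plasma cells, 192 ± 49.9 CPM tdT-positive and 296 ± 55.8 CPM tdT-negative). In bulk RNA, fewer cells of a type and less RNA per cell cannot be told apart. The part of such cells in the Bhlhe40 difference was not tested.

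**Figure D3:**
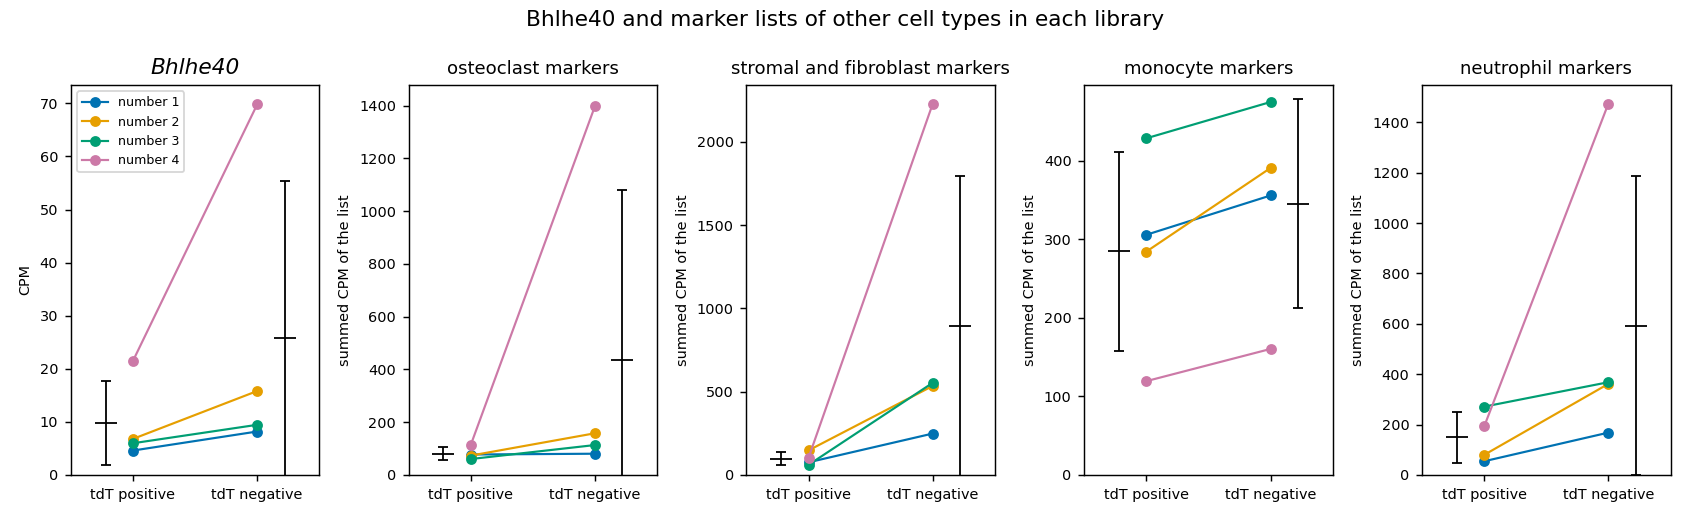
CPM of Bhlhe40 and summed CPM of 4 marker lists (vertical axes, starting at 0) in tdT-positive (left) and tdT-negative (right) libraries, joined by replicate number, with the mean and SD of 4 libraries in black, ending at 0 where the SD is larger than the mean. The tdT-negative library of number 4 is the highest for Bhlhe40 (69.8 CPM), for osteoclast markers (1398 CPM) and for stromal markers (2229 CPM). It is also the highest for neutrophil markers (1475 CPM), through Mmp9 alone (1461 CPM), and not for monocyte markers.

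The profile of Bhlhe40 over the 8 libraries, on the log2 scale and centred on its mean, was closest to those of Angptl2, Hbegf and Acp5 among the 9300 genes whose mean log2 CPM reached 2, with mean differences of 0.34, 0.34 and 0.35. Angptl2 encodes an angiopoietin-like secreted protein, Hbegf a growth factor of the EGF family and Acp5 the acid phosphatase used to stain osteoclasts. Ahr was closest to Btg1, an anti-proliferative gene, Lonrf3 and Lpp, with mean differences of 0.10, 0.12 and 0.12. Maf was closest to Zfp36, which encodes an mRNA decay protein, Armc7 and Vsir, an immune checkpoint gene, at 0.08 each. The profile of Il10 was closest to Ch25h, Gipr and Prokr1, at 0.25, 0.25 and 0.28. None of the 9 factors was among these 3, but this measure also grows with a difference in fold change. Il10 had a log2 fold change of 1.09, against at most 0.40 among the factors, so the measure cannot tell whether a factor follows Il10. The CPM levels of Il10 and Maf ran apart in number 4, where Il10 was highest among tdT-positive libraries and Maf lowest. Their differences between the groups did not: the ratio of tdT-positive over tdT-negative was largest in number 4 for both, at 2.66 for Il10 and 1.35 for Maf.

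The factors that bind cAMP response elements did not pass. Creb1 was at 36.1 ± 2.23 CPM in tdT-positive libraries, against 33.6 ± 1.30 CPM in tdT-negative ones, with a log2 fold change of 0.10 (SE 0.06, interval -0.04 to 0.25, adjusted p = 0.298). Atf1, its close relative, was at 32.8 ± 3.40 CPM tdT-positive and 29.7 ± 2.96 CPM tdT-negative and higher in 4 of 4 numbers by 1.05 to 1.18 times (log2 fold change 0.14, interval -0.0029 to 0.29, adjusted p = 0.160). Crem was at 11.7 ± 2.50 CPM tdT-positive and 11.0 ± 1.53 CPM tdT-negative, higher in 2 numbers and lower in the other 2, with a log2 fold change of 0.08 (interval -0.17 to 0.32, adjusted p = 0.646). The largest Crem ratio, 1.32, was in number 4. The intervals leave room for a rise of 1.19 times in Creb1, 1.22 in Atf1 and 1.25 in Crem.

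Sp1, Prdm1 and Nfil3 did not pass either. Sp1 had 104, 104, 105 and 96.2 CPM in tdT-positive libraries 1 to 4, against 100.1, 84.9, 84.1 and 87.1 CPM in the tdT-negative ones. It was higher in 4 of 4 numbers (log2 fold change 0.20, SE 0.06, interval 0.05 to 0.35, adjusted p = 0.0764). The exact permutation test gave p = 0.0571, and p = 0.2 with CPM scaled by library totals. With gene length corrected for, the log2 fold change was 0.09 (edgeR adjusted p = 0.246). The groups overlapped only because tdT-negative replicate 1 lay above tdT-positive replicate 4. Prdm1 had 44.0, 38.5, 36.9 and 40.1 CPM in tdT-positive libraries, against 40.7, 29.4, 28.1 and 44.2 CPM in tdT-negative ones. It was higher in numbers 1 to 3 and lower in number 4, the log2 fold change was 0.19 (SE 0.10, interval -0.05 to 0.42, adjusted p = 0.240), and without number 4 Prdm1 was called at 0.31 (adjusted p = 0.0245). Nfil3 was at 28.4 ± 6.55 CPM in tdT-positive libraries, against 28.5 ± 4.63 CPM in tdT-negative ones, lower in numbers 1, 2 and 3 by a ratio of 0.897 to 0.953 and higher in number 4 by 1.15 (log2 fold change -0.02, interval -0.20 to 0.16, adjusted p = 0.869). All 9 exact permutation tests lay above 0.05, where the smallest p that 4 against 4 libraries allow is 0.0286.

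Several genes whose products work with the CREB factors rose. Of 11 CREB co-activators, salt-inducible kinases and class IIa histone deacetylases, 6 rose and none fell, where 8.03% of all genes tested were called higher. Their median log2 fold change was 0.39, against 0.01 over all genes. The CREB-regulated co-activators Crtc1 (20.5 ± 1.95 CPM tdT-positive and 14.9 ± 1.15 CPM tdT-negative, log2 fold change 0.46, adjusted p = 0.00971) and Crtc3 (29.3 ± 3.01 CPM tdT-positive and 21.8 ± 1.49 CPM tdT-negative, 0.42, adjusted p = 0.0109) were higher in every number without overlap. Of all genes tested, 5.46% were higher without overlap. The salt-inducible kinase gene Sik3, whose product restrains the CRTC proteins, rose by 0.39, the histone deacetylase gene Hdac7 by 0.41, and the acetyltransferase genes Ep300 and Crebbp by 0.50 and 0.64. Crtc2 (0.21, adjusted p = 0.0609) did not pass. Leaving out number 1, 2, 3 or 4 gave 5, 0, 3 or 6 genes higher, in that order. Without the block none passed an adjusted p under 0.05, with 7 at an unadjusted p under 0.05.

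The kinases that lead to CREB gave no call, where edgeR called 15.8% of all genes tested. None of 15 genes passed with edgeR, DESeq2 or limma, with 2 at an unadjusted p under 0.05 in edgeR, Mapk14 and Rps6ka5, and the median log2 fold change was 0.03. With scaling by library totals or upper quartiles, or without number 3, this median was -0.04, -0.0018 or -0.0064. They include Map3k8 (TPL2), the ERK pathway gene Mapk3, the MSK genes Rps6ka4 and Rps6ka5 and the protein kinase A subunits. Mapkapk2, the most abundant, was at 558 ± 30.0 CPM in tdT-positive libraries, against 571 ± 39.6 CPM in tdT-negative ones.

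Among 19 tested relatives and partners of the factors, 4 rose and none fell (median 0.19), where 8.03% of all genes tested were called higher. The small Maf genes Mafg and Mafk rose by 0.24 and 0.21, and Creb5 by 0.37. Arnt, the partner of AHR, did not pass (0.19, adjusted p = 0.0997), and neither did Bhlhe41, the closest relative of Bhlhe40, which had a log2 fold change of 0.35 (adjusted p = 0.0564) against -1.13 for Bhlhe40. Atf3, the most abundant of the list, was at 233 ± 71.8 CPM tdT-positive and 218 ± 66.7 CPM tdT-negative. With number 1, 2 or 3 left out, and when libraries were scaled by totals, 1 gene of this list passed.

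Of 19 tested genes of other factors reported at Il10, 2 rose and none fell (median 0.13), where 8.03% of all genes tested were called higher, so the count is near the background. The AP-1 gene Fosl1 was at 19.5 ± 6.56 CPM in tdT-positive libraries, against 12.1 ± 4.06 CPM in tdT-negative ones, higher by 1.49 to 1.71 times within numbers (log2 fold change 0.70, SE 0.07, adjusted p = 0.00648), and Jun rose by 0.29 (adjusted p = 0.0364). Stat3, Irf4, Nfkb1, Rel, Rela, Cebpb and Hif1a, the most abundant at 697 ± 137 CPM tdT-positive and 638 ± 149 CPM tdT-negative, did not pass. A single gene of this list passed without number 2 or number 3, and when libraries were scaled by totals.

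Genes known to respond to these factors gave 2 calls in each of 3 lists, 1 higher and 1 lower, where 15.8% of all genes tested were called. Of 11 tested CREB and cAMP response genes, Per1, a clock gene, rose (0.41, adjusted p = 0.0181), Nr4a3, an orphan nuclear receptor gene, fell (-2.04, adjusted p = 0.0125, at 0.120 ± 0.113 CPM in tdT-positive libraries, against 0.471 ± 0.272 CPM in tdT-negative ones), and 9 did not pass. The median of -0.16 became 0.15 without number 4 and -0.0060 where 1 CPM in 4 libraries was required. Nr4a3 had only 3, 7, 1 and 17 counts in tdT-positive libraries 1 to 4, against 20, 30, 10 and 49 in the tdT-negative ones. Neither Per1 nor Nr4a3 was called without number 2 or without number 3, and none of the response genes was called lower without number 4. Thbs1, the most abundant of them, was at 3602 ± 1753 CPM tdT-positive and 2812 ± 695 CPM tdT-negative. Of 4 AHR target genes tested, Nqo1, which is also a target of Nrf2, rose by 0.38 (adjusted p = 0.0396), Cyp1b1, a cytochrome P450 gene, fell by 2.49 on the log2 scale (adjusted p = 0.0178), and Tiparp and Ahrr did not pass (median 0.09). Cyp1b1 was at 2.59, 3.42, 2.94 and 1.88 CPM in tdT-positive libraries 1 to 4, against 5.45, 13.04, 18.1 and 38.5 CPM in the tdT-negative ones, highest where the stromal markers were highest. The part of stromal cells in it was not tested. Tiparp was at 136 ± 26.1 CPM tdT-positive and 127 ± 23.3 CPM tdT-negative. None of the 4 AHR targets was called without number 2 or without number 3.

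Of 12 genes reported to depend on MAF in macrophages, Il10 rose, Il12b fell and 10 did not pass. The median of 0.03 became -0.06 without number 4, -0.05 with scaling by library totals and -0.0050 with upper quartiles. Il12b encodes the p40 chain of interleukin 12. It had 70.7, 81.3, 25.9 and 247 CPM in tdT-positive libraries 1 to 4, against 83.3, 94.2, 38.7 and 275 CPM in the tdT-negative ones, and was lower in 4 of 4 numbers (log2 fold change -0.29, SE 0.08, adjusted p = 0.0493). The complement genes C1qa, C1qb and C1qc did not pass, with log2 fold changes of -0.10, -0.05 and 0.01. Hmox1, the most abundant of the list, was at 3339 ± 1556 CPM in tdT-positive libraries, against 3032 ± 895 CPM in tdT-negative ones. The Il12b call was lost without number 1, 2 or 3 and when libraries were scaled by totals.

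**Figure D4:**
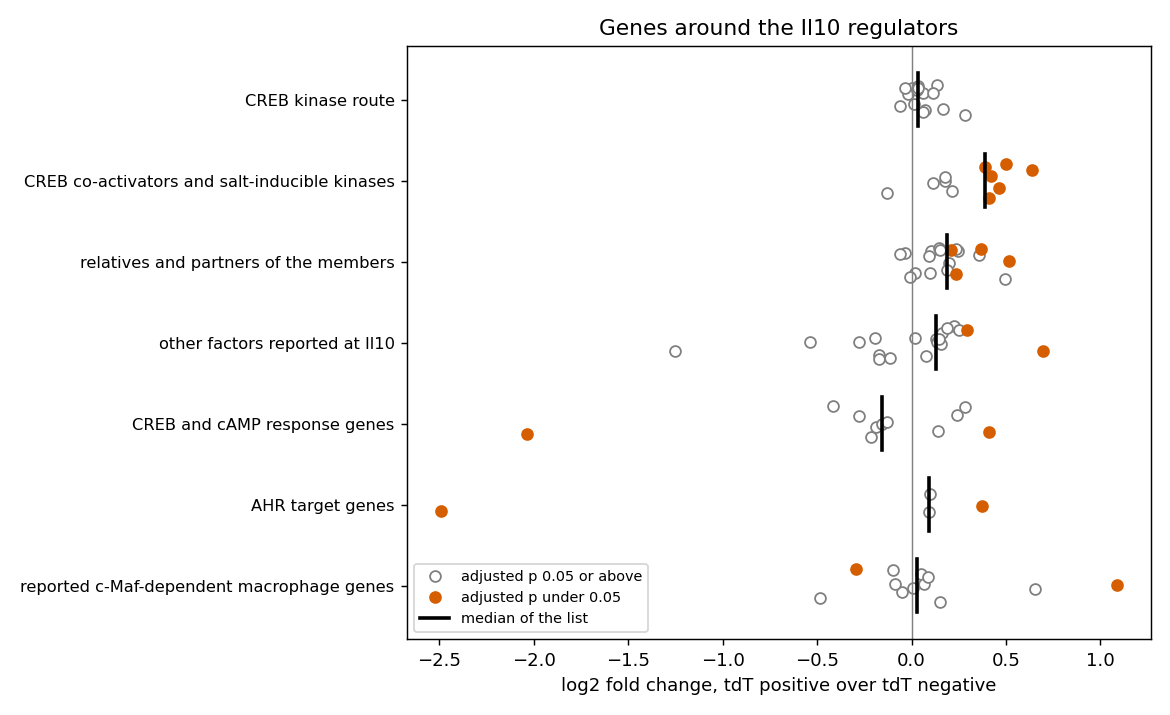
Log2 fold change of tdT-positive over tdT-negative libraries (horizontal axis) for the tested genes of 7 lists around the factors, with the median of each list as a black line, filled points for an adjusted p under 0.05 in the blocked edgeR fit and open points otherwise. The vertical scatter within a list carries no value. The co-activator list has 6 filled points and a median of 0.39, and the kinase list has none and a median of 0.03. Of all genes tested, 15.8% were called.

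**Figure D5:**
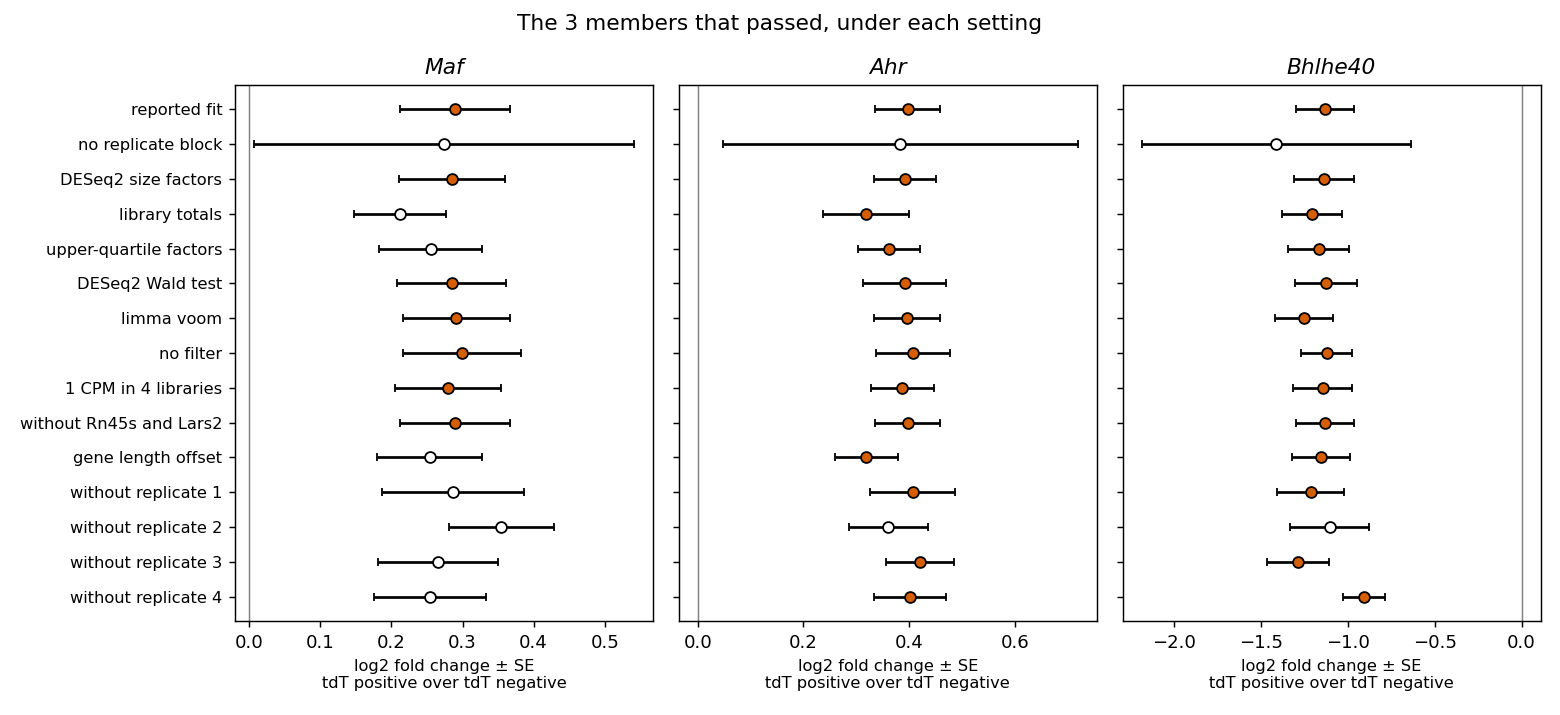
Log2 fold change ± SE (horizontal axis) of Maf, Ahr and Bhlhe40 under the reported fit and 14 alternative settings (vertical axis), filled where the adjusted p was under 0.05. Ahr and Bhlhe40 were called in 12 of the 14 alternatives and Maf in 6, with the same sign in all of them.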

How the data were processed

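Whole-number counts per gene, with gene lengths, were made and deposited by the authors; per the submitters' processing notes, reads were aligned with STAR to mm10. For the counting tool, its annotation and its strand setting, no source here gives a name. Per the labels' protocols, a stranded kit for polyadenylated RNA was used on 220 ng of RNA. Each column was tied to its sample through the name the labels give.

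Counts were filtered with edgeR 4.0.16 (minimum count 10, total 15, leaving 12610 genes), scaled by TMM (factors 0.865 to 1.15) and fitted with the replicate number as a block, since the comparison was set by replicate number. Deviations from the group means correlated by 0.77, 0.53, 0.71 and 0.60 between libraries numbered 1 to 4 in both groups, while the labels do not say what a number marks. SE is the log2 fold change over the square root of F. RPKM was computed from the deposited counts and lengths. Between libraries of a group, chi-square per degree of freedom was at least 54.0, so none was a repeat. The members, gene lists and settings were chosen with earlier results of these data known. Besides the 9 factors, Il10 and Il19, the text names up to 4 called genes and the most abundant gene of each list, and the 3 nearest profiles of each called factor. Crebbp, Mertk and others given as not passing, or at 0 counts, were named after their values were seen. Alternatives were the fit without the block, 3 other scalings, DESeq2 1.42.0, limma voom 3.58.1, 2 other filters, a loess correction for gene length, removal of Rn45s and Lars2, other thresholds, and leaving out each number. Sequences are from RefSeq and positions from GENCODE M21, both on GRCm38. Some genes of the lists enter the counts and are not reported here by name.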

Additional observations from a re-analysis of the deposited data

Results flagged for a closer look

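Single libraries were flagged as apart from the other 3 of their group for 6 of the genes named. The flag rests on the gap to the nearest library over the range of the group, in 106 groups tested. Chance gives such a flag in about 1 of 20 groups, so 6 flags in 106 groups is near what chance gives. Sp1 was at 96.2 CPM in tdT-positive replicate 4, below the 103.87 to 104.9 CPM of the other tdT-positive libraries. Crtc3 was at 33.8 CPM in tdT-positive replicate 3, above the 27.5 to 27.9 CPM of the others. In the same library Thbs1 reached 6221 CPM, against 2502 to 2857 CPM in the other tdT-positive libraries. Hmox1 was at 5671 CPM in tdT-positive replicate 4, against 2459 to 2638 CPM in the others. That library also had Cd4 at 0.964 CPM, against 0.671 to 0.688 CPM, and Sdc1 at 118 CPM, against 206 to 224 CPM. Maf, Ahr and Bhlhe40 had no flag, but the flags are not complete on the CPM scale. There Bhlhe40 in number 4 stood as far apart in both groups. It was at 69.8 CPM against 8.17 to 15.8 CPM in tdT-negative libraries, and at 21.5 CPM against 4.58 to 6.78 CPM in tdT-positive ones. Acp5, Mmp9 and Col1a1 in tdT-negative replicate 4 did so too, at 874, 1461 and 857 CPM.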

How the results depend on the processing

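The spread between numbers limits the comparison. Alternatives for the gene lists were chosen after the data had been seen. Without the replicate block, 1 gene was called higher and 2 lower in tdT-positive libraries, and 0 of the 9 factors and 0 genes of each of the 7 related lists passed. With scaling by library totals 425 genes were called higher, 1 factor was higher, 1 gene was higher among relatives and partners and 1 among other factors reported at Il10, and 0 AHR targets were higher and 0 MAF-dependent genes lower. Upper-quartile scaling left 1 factor higher and 0 AHR targets higher, and the gene length correction left 1 factor higher. At 1 CPM in 4 libraries 0 CREB response genes were lower. At an adjusted p under 0.01, 99 genes were higher and 135 lower, with 0 factors in either direction, 1 higher gene each among co-activators, relatives and other factors, 0 higher and 0 lower among CREB response genes and AHR targets, and 0 lower among MAF-dependent genes. At 0.1, 1631 genes were higher and 1551 lower, with 7 relatives and 4 other factors higher, and 2 MAF-dependent genes higher and 2 lower. Leaving out each number in turn gave 94 to 1231 genes higher and 126 to 1304 lower, 0 to 2 factors higher and 0 to 1 lower, 0 to 6 co-activators higher, 1 to 5 relatives higher, 1 to 2 other factors higher and 0 to 1 lower, 0 to 2 CREB response genes higher and 0 to 1 lower, 0 to 1 AHR targets higher and 0 to 1 lower, and 0 to 3 MAF-dependent genes lower. Of these 4 fits, the one without number 2 gave the fewest calls, 347 genes, of which 345 were among the 1998. Over all genes named and their alternatives, 706 values kept direction and call, 119 lost the call, 5 gained it and 15 turned sign, all 15 in genes that did not pass in either fit. After the length correction the log2 fold change was 0.0060 for Nfil3, 0.073 for Lyz2, -0.020 for Creb1 and -0.14 for Vcan, and with library totals it was -0.0018 for Crem and -0.036 for Vcan. Leaving out each number in turn gave log2 fold changes of -0.086 to 0.028 for Nfil3, -0.019 to 0.15 for Crem, -0.095 to 0.010 for Mapkapk2, -0.00049 to 0.16 for Atf3, -0.0023 to 0.15 for Hmox1, -0.21 to 0.13 for Lyz2, -0.75 to 0.51 for Mmp9 and -0.080 to 0.21 for Vcan. The cause of the lost calls was not tested.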
